A study of Mus musculus with 12 samples.

Results

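Clec1b, Gng11 and 8 partner genes that platelets and their precursor cells, the megakaryocytes, express were followed across mRNA sequencing libraries of mouse aorta. The 10 genes were found by symbol among the 3534 rows of the deposited table, and all 10 were present. Clec1b and Gng11 were chosen by their FPKM values, because they had been seen to stand higher in high-fat libraries than in normal-diet libraries of these same data, so every difference from the normal-diet group is given here as a description with no test.

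The 4 groups were HSAPN, labelled as an APPL1 knockdown on a high-fat diet, HAPN and HFD, both labelled wild type on a high-fat diet, and WT, labelled wild type on a normal diet. The high-fat diet held 60% of its energy as fat and was fed for 12 weeks, and the labels give induction of type 2 diabetes as its purpose. The sources used here do not say what sets HAPN apart from HFD, what the letters APN stand for, how APPL1 was lowered or in which cells, nor the age and strain of the mice. Each group had 3 files, but those of HFD replicates 1 and 2 were identical in all 3534 rows and were counted as 1 library, named HFD 1 and 2 below. That left 11 distinct libraries: 3 HSAPN, 3 HAPN, 2 HFD and 3 WT. No label ties replicates to separate mice, and p-values therefore measure only the spread between these libraries, which may be technical.

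Platelets are cell fragments without a nucleus that circulate in blood and carry RNA made in the megakaryocyte. They stick to von Willebrand factor and collagen where a vessel wall is damaged, spread, release stored granule proteins and bind one another through fibrinogen. In whole-tissue RNA, more cells of a type and more RNA per cell cannot be told apart.

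Values are FPKM as deposited, reads scaled to gene length and to library depth. The table held 12.0 to 17.6% of the estimated 15610000 to 17840000 reads of a library, and the sources used here do not state by which rule its genes were picked. Smooth muscle markers were present in every library, with Acta2 between 146 and 1607 FPKM, but markers of other tissues varied widely within groups. Bpifa1, an airway gene, stood at 6438 FPKM in HFD 1 and 2 and at 5.84 FPKM in HFD replicate 3, and the summed adipocyte markers stood at 1472 and 49.7 FPKM in the same pair. In WT replicate 3 the hemoglobin gene Hbb-bs stood at 1658 FPKM, against 224 and 212 FPKM in WT replicates 1 and 2. For the 10 genes, the main folds and medians that rest on HFD 1 and 2 are given without it as well.

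Clec1b encodes a C-type lectin receptor that binds podoplanin and signals through the kinase Syk. Its gene lies on chromosome 6 of GRCm38 (129397297 to 129409335, plus strand), and 184 bases of its exons are shared with Clec9a on the same strand, so reads there cannot be assigned to one gene by position alone. Clec1b stood at 6.81, 4.74 and 5.47 FPKM in the HSAPN libraries, at 5.77, 5.79 and 3.95 FPKM in HAPN libraries, at 8.70 (HFD 1 and 2) and 4.76 FPKM in HFD, and at 0.952, 1.25 and 3.01 FPKM in WT. All 8 high-fat libraries lay above all 3 WT libraries, and WT replicate 3 stood nearest to them. The means were 5.75 ± 1.47 FPKM over the high-fat libraries and 1.74 ± 1.11 FPKM over WT (SD, n = 8 and 3), a 3.31-fold ratio that stayed at 3.07-fold without HFD 1 and 2. At the depth of these libraries Clec1b was covered by 314 to 703 reads in high-fat libraries and by 85 to 261 reads in WT.

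Gng11 encodes a gamma subunit of heterotrimeric G proteins, which pass signals from receptors such as those for thrombin and ADP. Gng11 is also expressed in many cell types other than platelets, endothelium among them. It lies on chromosome 6 as well (4003904 to 4008445, plus strand). Gng11 stood at 78.1, 83.0 and 79.9 FPKM in HSAPN, at 58.2, 78.0 and 73.5 FPKM in HAPN libraries, at 96.9 (HFD 1 and 2) and 98.9 FPKM in HFD, and at 51.2, 34.4 and 57.0 FPKM in WT. The high-fat libraries again did not overlap WT, although HAPN replicate 1 and WT replicate 3 differed by little. Means were 80.8 ± 12.9 and 47.6 ± 11.7 FPKM (SD, n = 8 and 3), a 1.70-fold ratio, or 1.65-fold without HFD 1 and 2. The HSAPN libraries lay close together, at 80.3 ± 2.46 FPKM (SD, n = 3).

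The other receptors of the platelet surface follow. Itga2b encodes the alpha chain of the fibrinogen receptor and is a defining gene of the megakaryocyte line (chromosome 11, 102453297 to 102470122, minus strand). It stood at 9.61, 8.62 and 6.01 FPKM in HSAPN, at 10.4, 7.94 and 6.62 FPKM in HAPN libraries, at 19.2 (HFD 1 and 2) and 5.50 FPKM in HFD, and at 2.99, 3.59 and 5.05 FPKM in WT. No high-fat library overlapped WT, but HFD replicate 3 exceeded WT replicate 3 by little, and HFD 1 and 2 stood above every other library. Gp9 and Gp5 encode parts of the GPIb-IX-V complex, which binds von Willebrand factor. Gp9 (chromosome 6, 87778072 to 87779768, plus strand) stood at 17.7, 15.9 and 11.9 FPKM in HSAPN, at 20.01, 14.7 and 8.90 FPKM in HAPN libraries, at 51.0 and 14.5 FPKM in HFD, and at 6.23, 2.48 and 7.08 FPKM in WT. Gp5 (chromosome 16, 30307685 to 30310779, minus strand) stood at 5.23, 4.05 and 2.61 FPKM in HSAPN, at 3.79, 3.12 and 2.15 FPKM in HAPN libraries, at 8.62 and 3.31 FPKM in HFD, and at 1.69, 1.02 and 2.60 FPKM in WT. Gp9 did not overlap between high-fat and WT libraries, while the Gp5 value of HAPN replicate 3 fell inside the WT range.

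Gp6, the collagen receptor, and Treml1, a receptor kept in granules until the platelet is activated, were read next. Gp6 (chromosome 7, 4363965 to 4397744, minus strand) stood at 1.04, 1.29 and 0.510 FPKM in HSAPN, at 1.41, 0.714 and 0.508 FPKM in HAPN libraries, at 2.71 and 0.611 FPKM in HFD, and at 0.242, 0.313 and 0.429 FPKM in WT. Treml1 (chromosome 17, 48359916 to 48367176, plus strand) stood at 7.47, 5.29 and 3.87 FPKM in HSAPN, at 7.12, 4.56 and 2.59 FPKM in HAPN libraries, at 19.9 and 3.602 FPKM in HFD, and at 1.43, 2.39 and 3.06 FPKM in WT. The Gp6 values of high-fat libraries all lay above WT, whereas Treml1 overlapped through HAPN replicate 3. Gp6 was covered by 47 to 253 reads in high-fat libraries and by 25 to 43 reads in WT.

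Granule chemokines followed. Pf4 and Ppbp encode chemokines that platelets store and release, and their genes stand 2372 bases apart on chromosome 5 (Pf4 from 90772435 to 90773383, Ppbp from 90768518 to 90770063, both plus strand). Pf4 stood at 36.3, 38.3 and 30.9 FPKM in HSAPN, at 50.2, 37.5 and 30.1 FPKM in HAPN libraries, at 116 (HFD 1 and 2) and 44.0 FPKM in HFD, and at 30.9, 26.1 and 34.2 FPKM in WT. Ppbp stood at 59.8, 84.7 and 42.3 FPKM in HSAPN, at 76.0, 53.1 and 22.6 FPKM in HAPN libraries, at 205 and 47.5 FPKM in HFD, and at 25.0, 17.8 and 26.2 FPKM in WT. The order of libraries was much alike for both (Spearman rho 0.91 over 11 libraries, a description), but the size of the ratio to WT differed. Pf4 overlapped WT in HSAPN and HAPN, and its high-fat mean was 1.58-fold the WT mean, or 1.26-fold without HFD 1 and 2. Ppbp was 3.21-fold higher over the high-fat libraries, or 2.40-fold without HFD 1 and 2, and only HAPN replicate 3 fell inside the WT range.

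Tubb1 encodes the tubulin that forms the microtubule ring of the platelet (chromosome 2, 174450695 to 174457882, plus strand). It stood at 17.0, 26.3 and 10.8 FPKM in HSAPN, at 19.0, 15.4 and 8.75 FPKM in HAPN libraries, at 36.3 and 8.08 FPKM in HFD, and at 1.58, 2.39 and 10.2 FPKM in WT. Relative to their mean, its WT libraries spread more than those of the other 9 genes, and WT replicate 3 exceeded HAPN replicate 3 and HFD replicate 3.

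**Figure D1:**
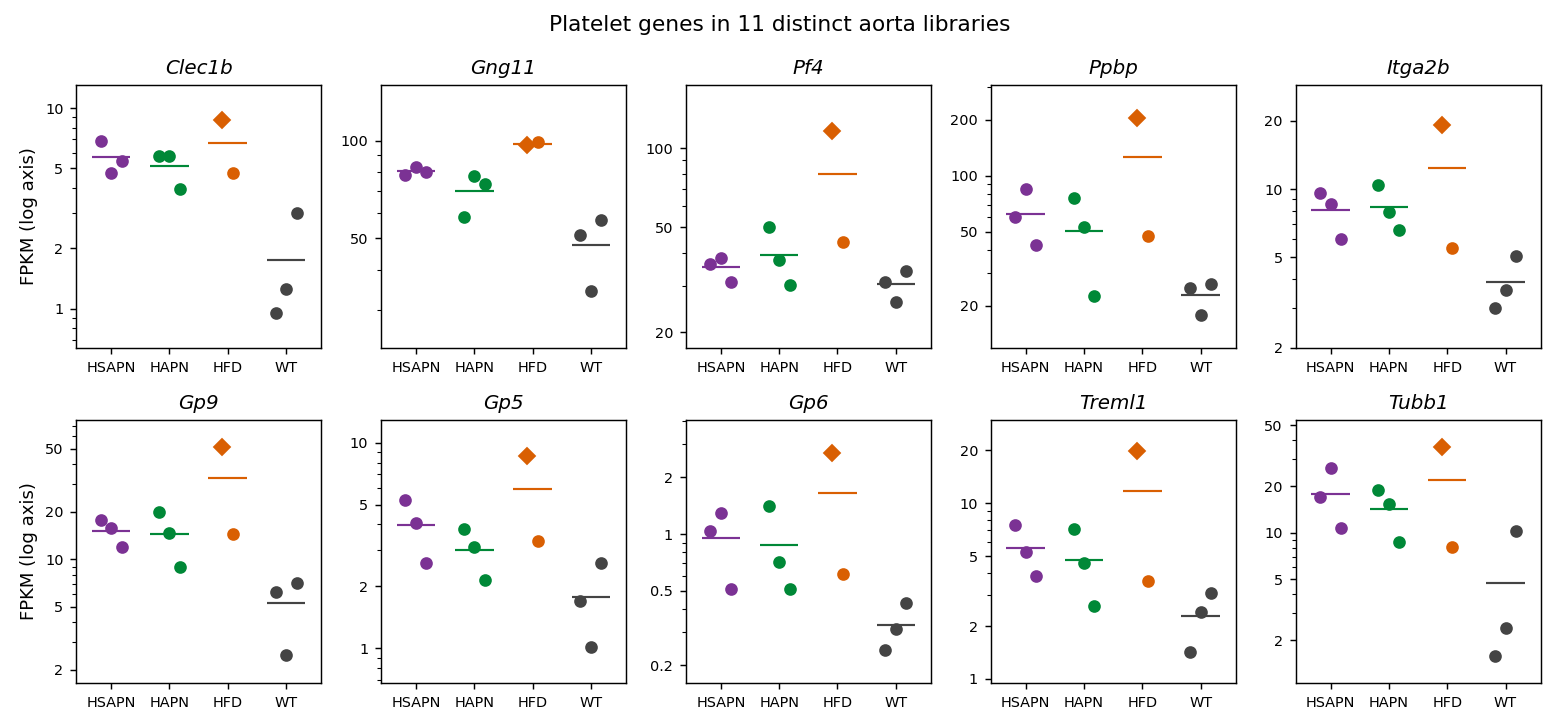
FPKM (log axis) of the 10 platelet genes in the 11 distinct libraries, in the order HSAPN, HAPN, HFD and WT. Points are libraries, the diamond is HFD 1 and 2 and bars are group means; Clec1b and Gng11 lie higher in all 8 high-fat libraries than in WT, and HFD 1 and 2 is the highest library in 9 of the 10 panels.

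The high-fat groups were set side by side against WT. The median difference was largest in HFD, which rested on HFD 1 and 2. The log2 differences were taken between group means of log2(FPKM + 1), a scale that understates changes of low genes such as Gp6. Against WT, Clec1b differed by 1.35 in HSAPN, 1.23 in HAPN and 1.52 in HFD (SE 0.311, 0.311 and 0.348), and Gng11 by 0.78, 0.57 and 1.06 (SE 0.206, 0.206 and 0.230). The 3 differences share the WT libraries and are not independent. All 10 genes had positive differences in each group and under each alternative tried, where 42.3% of the 1659 tested genes were above 0 in HSAPN, 38.0% in HAPN and 57.6% in HFD. Groups did not overlap, with the high-fat group higher, in 9 of 10 genes in HSAPN (10.3% of all tested genes), in 5 of 10 in HAPN (7.11%) and in 9 of 10 in HFD (12.1%). The median log2 difference of the 10 genes was 0.94 in HSAPN, 0.85 in HAPN and 1.39 in HFD, and medians over all tested genes were -0.12, -0.17 and 0.07. With median-ratio scaling, which brings the medians over all genes to 0.02, 0.01 and 0.02, those of the 10 genes were 1.08, 1.03 and 1.31. Without HFD 1 and 2 the HFD median was 0.83. No member lay wholly below WT, as 19.0% of all genes did in HSAPN, 20.4% in HAPN and 7.17% in HFD. With 8 high-fat libraries against 3 WT libraries, Clec1b, Gng11, Itga2b, Gp9 and Gp6 did not overlap, against 1.75% of all tested genes, and all 10 had a positive difference, against 44.6%. In the other direction the groups were apart in 0 of the 10 and in 2.29% of all genes. The choice of Clec1b and Gng11 used this contrast. Tested genes had to reach 1 FPKM in 3 or more libraries. Gp6, at 0.429 FPKM or less in WT, did so only through high-fat libraries, which favours its positive difference. Clec1b, at 0.952 FPKM in WT replicate 1, needed at least 1 high-fat library as well. Nothing is therefore read from these counts.

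**Figure D2:**
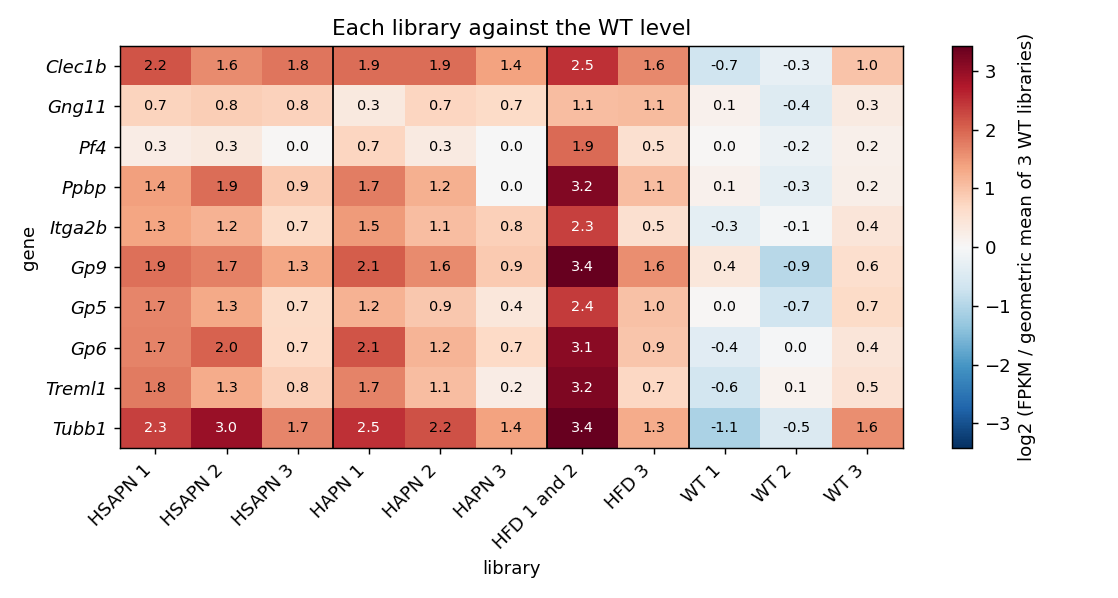
log2 ratio of each library's FPKM to the geometric mean of the 3 WT libraries, for the 10 genes (rows) and 11 libraries (columns, with lines between groups). HFD 1 and 2 is the highest library in 9 of the 10 genes, and Clec1b stands at 1.37 or more in each high-fat library, while Pf4 is at 0.03 in HSAPN replicate 3 and at -0.01 in HAPN replicate 3.

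HFD 1 and 2 stood apart from the other 7 high-fat libraries, and not to the same extent in every gene. Its Treml1 level was 4.35-fold the median of those 7 libraries, Ppbp 3.85-fold, Gp6 3.79-fold, Gp9 3.48-fold and Pf4 3.09-fold. Gp5, Itga2b and Tubb1 were 2.60-, 2.42- and 2.35-fold their medians. Clec1b was 1.59-fold and Gng11 1.24-fold, the lowest of the 10. Gng11 was 96.9 FPKM in HFD 1 and 2 and 98.9 FPKM in HFD replicate 3, while the sum of the 10 genes was 564 and 231 FPKM in the same libraries. At the other end HAPN replicate 3 was the lowest high-fat library in 7 of the 10 genes.

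Ratios to Itga2b within a library show the same uneven movement. Clec1b was 0.709, 0.549 and 0.910 times the Itga2b level in HSAPN, 0.556, 0.729 and 0.597 times in HAPN, 0.454 (HFD 1 and 2) and 0.865 times in HFD, and 0.319, 0.348 and 0.596 times in WT. The WT libraries 1 and 2 gave the lowest Clec1b ratios of all 11, and WT replicate 3 lay among the high-fat libraries. Gng11 ran from 5.06 times Itga2b in HFD 1 and 2 to 17.97 times in HFD replicate 3. Pf4 was 3.77, 4.45 and 5.15 times Itga2b in HSAPN, 4.84, 4.72 and 4.54 times in HAPN, 6.04 and 7.99 times in HFD, and 10.4, 7.26 and 6.77 times in WT. Its HSAPN and HAPN ratios lay below those of all HFD and WT libraries. Gp6 kept the narrowest range of ratios, with a 1.96-fold span over the 11 libraries, and Tubb1 the widest, with 5.74-fold.

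Likeness of pattern was measured as Pearson r of log2(FPKM + 1) over the 11 libraries, which share groups and sequencing, and is given as a description without p. Among the 10 genes, Gng11 had a median r of 0.67 with the other 9 genes, the lowest of the 10, and Itga2b had 0.92, the highest. Without HFD 1 and 2 these medians were 0.62 and 0.86, and Clec1b kept 0.86 against 0.83 with all libraries. Of 1303 named genes compared, the 6 most like Clec1b were Mfsd2b (r = 0.95), Gp1ba (0.94), Tubb1 (0.92), Slc6a4 (0.91), Slc2a3 (0.90) and Cd226 (0.90). Gp1ba encodes the von Willebrand factor-binding chain of the GPIb-IX-V complex, Slc6a4 the serotonin transporter that loads platelets, Mfsd2b an exporter of sphingosine phosphate from red cells and platelets, and Slc2a3 a glucose transporter that platelets use.

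The 6 genes most like Gng11 were others: Stmn2 (r = 0.93), Angptl4 (0.91), Ctla2a (0.91), Dpysl5 (0.91), Plin2 (0.89) and Tmeff2 (0.87). None of them is on the platelet lists used here, and Clec1b came 27th in likeness to Gng11, with r = 0.81. Angptl4 and Plin2 are genes of lipid handling, and Ctla2a is a cathepsin inhibitor expressed in endothelium. Ctla2a stood at 28.3, 26.0 and 19.2 FPKM in HSAPN, 22.4, 20.6 and 31.2 FPKM in HAPN, 35.5 and 41.6 FPKM in HFD, and 9.08, 7.16 and 15.8 FPKM in WT. Only this 1 of 20 endothelial markers was in the table, so the part of endothelium in the Gng11 values was not tested.

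Wider platelet lists were read by their counts. These lists were not recomputed without HFD 1 and 2. Of 25 further surface receptor genes 13 were in the table and 12 tested. Against WT, 11 of those 12 stood higher over the high-fat groups (median log2 difference 0.75). Of all tested genes 44.6% did, with a median of -0.06. Jam3, which encodes an adhesion molecule also found in the vessel wall, stood lower. Ly6g6f, at 0.451 FPKM or less in WT, passed the filter only through high-fat libraries. Gp1ba and Cd226, among others, reached 1 FPKM in no WT library but replicate 3, so they needed high-fat libraries as well. Gp1ba averaged 1.83 ± 0.0733, 2.01 ± 0.572, 2.75 ± 2.04 and 0.681 ± 0.423 FPKM in HSAPN, HAPN, HFD and WT (SD, n = 3, 3, 2 and 3), and all 8 high-fat libraries lay above WT. Itgb3, which encodes the partner chain of Itga2b, averaged 9.04 ± 2.28, 8.12 ± 0.876, 12.4 ± 8.45 and 5.07 ± 2.21 FPKM in the same order, with 5 of 8 high-fat libraries above WT. P2rx1, an ATP-gated channel, averaged 3.72, 3.67, 4.68 and 2.20 FPKM, and Mpig6b, an inhibitory receptor, 2.83, 3.78, 6.04 and 1.89 FPKM. In HFD 1 and 2 Gp1bb reached 4.64-fold the median of the other high-fat libraries, more than any of the 10 genes.

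Genes inside the platelet followed where they were in the table. Of 22 genes of the signalling chain below Clec1b and Gp6 only Fermt3, an activator of integrins, and Plek, a substrate of protein kinase C, were in the table, both also expressed in white blood cells. Plek averaged 21.2 ± 5.19, 16.3 ± 4.11, 23.9 ± 16.4 and 7.99 ± 4.19 FPKM in HSAPN, HAPN, HFD and WT, and Fermt3 14.5 ± 2.72, 14.0 ± 2.18, 15.7 ± 10.02 and 7.18 ± 3.80 FPKM (SD, n = 3, 3, 2 and 3). Among 27 G protein genes 8 were in the table and 4 tested, and all 4 had positive log2 differences over the high-fat groups (median 0.43). Over all tested genes 44.6% were above 0, with a median of -0.06. Rgs18, a brake on G protein signalling in platelets, averaged 4.35 ± 0.852, 3.55 ± 0.803, 6.49 ± 3.39 and 2.11 ± 0.515 FPKM in the same order, and Rgs10, another such brake, 15.0, 14.7, 16.9 and 9.31 FPKM. Granule genes were positive in 5 of 5 tested (median 0.77). Of these F13a1, the catalytic chain of clotting factor XIII, which macrophages also express, averaged 8.35, 3.93, 7.91 and 3.05 FPKM in HSAPN, HAPN, HFD and WT. Ccl5, a chemokine that T cells also make, averaged 22.5, 24.7, 12.4 and 10.9 FPKM, with HFD close to WT. The list of cytoskeleton and enzyme genes was divided, with 3 of 7 positive (median -0.04), close to the share and median over all tested genes. Nrgn, a calmodulin-binding protein found in platelets and neurons, averaged 41.5, 46.7, 78.9 and 22.6 FPKM in HSAPN, HAPN, HFD and WT. Myl9 and Mylk, which smooth muscle expresses strongly, differed by -1.33 and -0.52 on the log2 scale over the high-fat groups. Of the megakaryocyte transcription factors only Mef2c was tested. Gfi1b was below the filter, at 0.481 FPKM or less in every library.

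Red cell transcripts moved with part of these values. Of 20 erythrocyte markers 12 were in the table, and their summed level ran from 3244 to 4963 FPKM in HSAPN, from 1348 to 3969 in HAPN, from 2253 to 3925 in HFD and from 445 to 3266 in WT. Hbb-bs stood at 2505, 1675 and 2123 FPKM in HSAPN, at 568.4, 2026 and 1469 FPKM in HAPN, and at 2055 and 1221 FPKM in HFD. The order of libraries differed from that of the platelet genes. HAPN replicate 1 had the lowest Hbb-bs of the high-fat libraries, with Clec1b at 5.77 and Itga2b at 10.4 FPKM. HSAPN replicate 2 and WT replicate 3 had close Hbb-bs levels of 1675 and 1658 FPKM. Clec1b stood at 4.74 FPKM in that HSAPN library and 3.01 FPKM in that WT library, and Gng11 at 83.0 and 57.0 FPKM. Both genes were chosen for standing higher in high-fat libraries than in WT, so nothing is read from this pair. HAPN replicate 3, at 1469 FPKM of Hbb-bs, lay above every WT library in 5 of the 10 genes. In WT replicates 1 and 2 Hbb-bs stood at 224 and 212 FPKM. HFD 1 and 2 held 1.23-fold the median Hbb-bs level of the other high-fat libraries, against 3.85-fold for Ppbp. Epb42, which encodes a red cell membrane protein, was listed at 0 in WT replicates 1 and 2. It was near the floor in every library, at 0.222 FPKM or less, so nothing is read from these zeros. The part of red cell content in the platelet values was not tested.

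**Figure D3:**
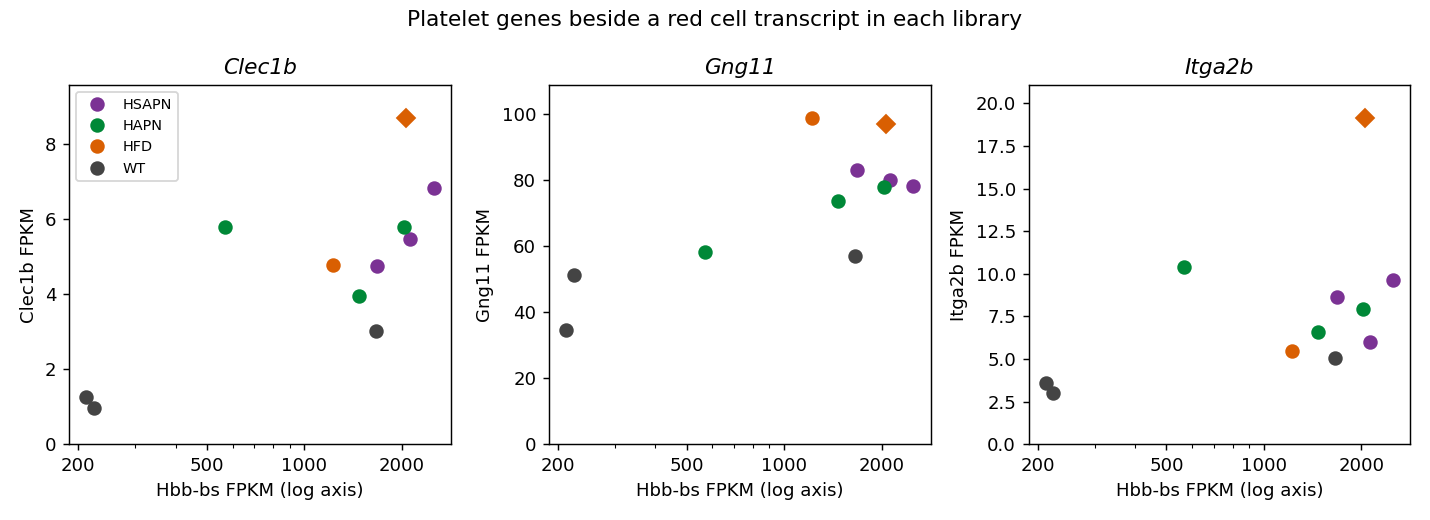
Levels of Clec1b, Gng11 and Itga2b (FPKM, linear axis from 0) against the hemoglobin gene Hbb-bs (FPKM, log axis) in the 11 libraries, coloured by group, with HFD 1 and 2 as a diamond. WT replicates 1 and 2 sit low on both axes, and HAPN replicate 1, at 568.4 FPKM of Hbb-bs, holds Clec1b at 5.77 FPKM.

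White cell and tissue markers were read beside them. Monocyte and macrophage markers (2 of 13 in the table) summed to 36.2 to 56.1 FPKM in HSAPN, 20.98 to 58.3 in HAPN, 29.2 to 78.3 in HFD and 20.2 to 42.5 in WT, with HFD 1 and 2 the highest. Smooth muscle markers (10 of 12) summed to 416 to 701 FPKM in HSAPN, 395 to 756 in HAPN, 349 to 1182 in HFD and 953 to 3756 in WT. All 9 that were tested had negative log2 differences over the high-fat groups (median -1.325). Of all tested genes 44.6% were above 0, with a median of -0.06. Pf4 is known in macrophages as well. The 9 genes of the list for podoplanin and lymphatic endothelium, which presents the ligand of Clec1b, were not in the table and were not analysed here. How far these cell types set the platelet values was not tested.

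APPL1 knockdown was compared with HAPN, a difference that the choice of genes did not use, although both groups counted among the high-fat libraries set against WT. None of the 10 genes passed a limma test at a Benjamini-Hochberg adjusted p of 0.05, where 0.121% of the 1659 genes did, and the 10 genes had limma adjusted p-values of 0.999. Clec1b differed by 0.12 on the log2(FPKM + 1) scale (95% interval -0.58 to 0.82) and Gng11 by 0.21 (-0.25 to 0.67). The mean of Clec1b was 5.67 ± 1.05 FPKM in HSAPN and 5.17 ± 1.06 FPKM in HAPN (SD, n = 3 each). Differences were above 0 in 8 of 10 genes, against 53.5% of all genes, and in 2 of 10 without HAPN replicate 3. Gng11 alone had groups that did not overlap, as did 9.95% of all genes with HSAPN higher, by 78.1 FPKM in the lowest HSAPN library and 78.0 FPKM in the highest HAPN library. The intervals leave room for changes of either sign, as for Tubb1, -1.19 to 1.76. At an unadjusted p under 0.05 limma called 0 of the 10 and 7.84% of all genes, and HSAPN lay wholly below HAPN in 0 of the 10 and in 7.53%. No gene of the wider platelet lists passed the threshold.

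HSAPN and HAPN were each compared with HFD, whose values took part in the choice of Clec1b and Gng11. No gene of the 10 passed in either comparison. In HSAPN against HFD the limma adjusted p-values were 0.886 or more, with 0% of all genes called, 67 genes at an unadjusted p under 0.05 and 0 by limma-voom on recovered reads. In HAPN against HFD they were 0.542 or more, with 0.181% called. All 10 differences were below 0 in both comparisons, with medians of -0.38 and -0.60, while 27.1% and 24.9% of all genes were above 0. Over all genes the medians were -0.18 and -0.24, and median-ratio scaling, which brings those to 0.01 and -0.01, left medians of -0.19 and -0.34 for the 10 genes and turned Clec1b and Tubb1 to 0.03 and 0.19 in HSAPN against HFD. Pf4 alone had an unadjusted limma p under 0.05 in both, as had 4.04% and 8.62% of all genes, with log2 differences of -1.01 (95% interval -1.84 to -0.18) and -0.88 (-1.71 to -0.05). Without HFD 1 and 2 these Pf4 differences were -0.32 and -0.19. Gng11 did not overlap in either comparison and stood lower by 0.28 and 0.49, and Pf4 did not overlap in HSAPN against HFD; groups did not overlap in this direction in 14.2% and 19.8% of all genes. None of the 10 lay wholly above HFD, against 5.61% and 6.51%. Without HFD 1 and 2 the medians were 0.23 and 0.01, and 8 and 5 of the 10 differences were above 0.

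**Figure D4:**
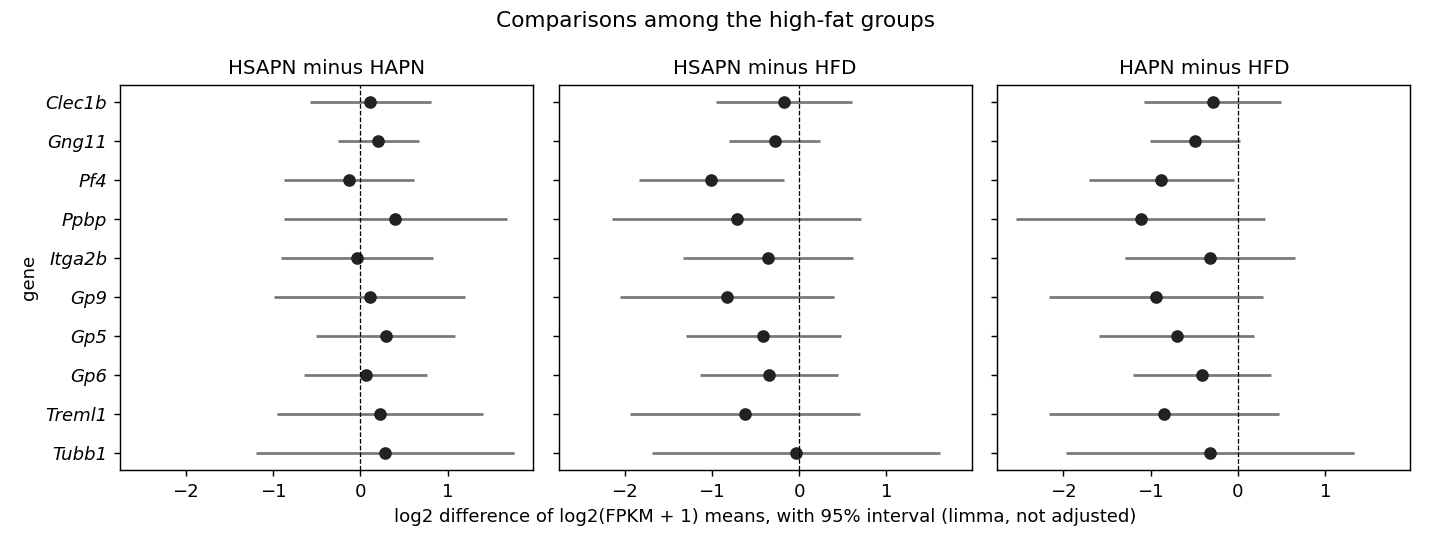
log2 differences of log2(FPKM + 1) group means for the 10 genes in HSAPN minus HAPN, HSAPN minus HFD and HAPN minus HFD. Points are limma estimates and lines their 95% intervals, not adjusted for multiple testing; each interval of the first panel crosses 0, and in the others that of Pf4 lies below 0, with adjusted p-values of 0.886 and 0.542.

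The upstream sequence of the genes was read for motifs that the choice of genes did not use. RefSeq promoters of GRCm38.p6 matched 9 of the 10 symbols, and Gng11, which had no match, was not searched. The 250 bases before the RefSeq start were searched on both strands. For Itga2b that start (102469883) lies downstream of the GENCODE start given above, and 239 of the 250 bases fall inside the GENCODE gene. For Tubb1 the RefSeq start (174450595) lies 100 bases upstream of the GENCODE start. GATA factors and ETS factors are the best known regulators of megakaryocyte genes, and the forms searched were AGATAA and TGATAA for GATA and AGGAAG and CGGAAG for ETS. Such forms can overlap one another, but no GATA match overlapped an ETS match in the 9 windows. A GATA form was found in 3 of the 9 (Clec1b, Gp6 and Gp5) and in 16.5% of 32536 promoters of this length, and an ETS form in 5 of the 9 (Tubb1, Pf4, Gp9, Itga2b and Gp5) and in 39.3%. Gp5 was the 1 promoter that held both. Those of Clec1b, Itga2b, Pf4 and Gp5 are shown, since they hold each kind of match next to the genes described most, with the matched bases in capitals. They lie at chr6:129397047-129397296 (plus strand), chr11:102469884-102470133 (minus), chr5:90772185-90772434 (plus) and chr16:30310782-30311031 (minus).
Clec1b: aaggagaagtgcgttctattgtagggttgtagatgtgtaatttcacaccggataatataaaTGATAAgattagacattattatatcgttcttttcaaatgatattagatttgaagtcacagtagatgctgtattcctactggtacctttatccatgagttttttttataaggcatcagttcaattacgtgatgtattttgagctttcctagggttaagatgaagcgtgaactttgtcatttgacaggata
Itga2b: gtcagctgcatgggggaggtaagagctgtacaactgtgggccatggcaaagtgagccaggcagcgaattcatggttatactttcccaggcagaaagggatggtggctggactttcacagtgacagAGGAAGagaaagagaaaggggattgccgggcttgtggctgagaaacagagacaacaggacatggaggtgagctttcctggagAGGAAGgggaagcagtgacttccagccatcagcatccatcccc
Pf4: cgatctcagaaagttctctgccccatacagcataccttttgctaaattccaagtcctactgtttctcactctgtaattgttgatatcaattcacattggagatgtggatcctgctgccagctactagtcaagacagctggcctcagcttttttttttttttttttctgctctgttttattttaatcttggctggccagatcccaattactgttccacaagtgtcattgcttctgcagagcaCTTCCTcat
Gp5: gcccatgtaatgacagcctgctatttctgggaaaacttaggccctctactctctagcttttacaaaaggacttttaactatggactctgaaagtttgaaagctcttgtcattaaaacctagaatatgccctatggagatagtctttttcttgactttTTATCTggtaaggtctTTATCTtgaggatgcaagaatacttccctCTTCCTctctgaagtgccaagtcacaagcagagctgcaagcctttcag

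In Clec1b the match TGATAA began 189 bases before the RefSeq start, and in Gp5 TTATCT, the reverse complement of AGATAA, began 93 and 77 bases before it. Itga2b held AGGAAG from 125 and from 43 bases before its RefSeq start, and Pf4 held CTTCCT, the reverse complement of AGGAAG, within the last 9 bases. A match describes letters in this window and shows no binding.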

How the data were processed

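RNA from mouse aorta was sequenced in 12 samples of 4 groups, with directional libraries per the labels' protocols. GRCm38, DESeq 1.8.3 and featureCounts 1.5.0-p3 are listed without a role per the submitters' processing notes, and the sources used here name no aligner, annotation release or strand setting. The deposited values were read as FPKM: with exonic lengths of GENCODE M21, 96.1 to 97.3% of low values (up to 20 reads, tolerance 0.1) came out as whole reads, a check that a TPM scaling could also pass. Read numbers and totals come from that step.

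Identical files entered as 1 library, and Dlg2, listed more than 1 time, was left out. The 1659 genes that reached 1 FPKM in 3 or more libraries were fitted on log2(FPKM + 1) with limma-trend (limma 3.58.1, R 4.3.3), with 4 group means over 11 libraries, 7 residual degrees of freedom and Benjamini-Hochberg adjustment over all tested genes. The test was checked on simulated data. Tables and figures used Python 3.11.15, pandas 2.3.3, NumPy 2.4.6, SciPy 1.17.1 and matplotlib 3.10.9. The same-numbered libraries of different groups were not treated as pairs.

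The genes, lists and tests were chosen with earlier results of these data known. Named were all 10 genes, up to 4 genes per list by mean FPKM and the 6 genes most like Clec1b and Gng11 whose mean log2(FPKM + 1) reached 1. Jam3 and Epb42 were named after their values were seen. Alternatives were the pseudocount, filter, scaling, libraries left out, replicate block, groups fitted alone, identical files counted separately and no variance trend; limma-voom on recovered reads was added after seeing the data.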

Additional observations from a re-analysis of the deposited data

Results flagged for a closer look

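Over the 8 high-fat libraries, HFD 1 and 2 was far above the next library in 6 of the 10 genes. The gap to the next library was 0.765 of the whole range for Pf4, 0.736 for Gp9, 0.718 for Treml1, 0.658 for Ppbp, 0.643 for Itga2b and 0.590 for Gp6, each above Dixon's critical value of 0.526 for 8 values. For Gp5 it was 0.523, for Clec1b 0.397, for Tubb1 0.355 and for Gng11, where HFD replicate 3 was highest, 0.0472. Chance alone gives such a gap in about 1 in 20 groups of normally distributed values. The gaps were taken on FPKM itself, a linear scale that widens gaps between high values, and not on the log2 scale of the fits. The 6 genes vary together and are not independent cases. The 8 libraries belong to 3 groups with the same diet, and the groups themselves are too small for this check.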

How the results depend on the processing

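None of the 10 genes passed the threshold in any of the 3 tested comparisons under any alternative; the lowest limma adjusted p was 0.055, for Pf4 in HSAPN against HFD without HFD replicate 3. Of 902 alternative values for single genes, 29 changed sign, none of them in a comparison with WT and 27 of them on leaving out 1 library. The others were Clec1b (from -0.176 to 0.032) and Tubb1 (from -0.037 to 0.194) in HSAPN minus HFD with median-ratio scaling. That scaling moved the median over all tested genes in this comparison from -0.181 to 0.011.

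With 1 library left out, HAPN minus HFD ran from -0.668 to 0.084 for Clec1b, -1.14 to 0.50 for Itga2b, -1.01 to 0.19 for Gp6, -1.94 to 0.25 for Treml1 and -1.34 to 0.70 for Tubb1. HSAPN minus HFD ran from -0.55 to 0.20 for Clec1b, -1.76 to 0.33 for Ppbp, -1.17 to 0.46 for Itga2b, -1.705 to 0.044 for Gp9, -0.99 to 0.17 for Gp5, -0.95 to 0.25 for Gp6, -1.71 to 0.47 for Treml1 and -1.055 to 0.982 for Tubb1 (0.268 without HSAPN replicate 3). Each of these upper values against HFD came without HFD 1 and 2, which also brought Ppbp to -0.07, Gp9 to -0.06, Gp5 to -0.12 and Pf4 to -0.19 in HAPN minus HFD, and Pf4 to -0.32 in HSAPN minus HFD, with their sign kept. HSAPN minus HAPN ran from -0.035 to 0.220 for Clec1b, -0.300 to 0.061 for Pf4, -0.085 to 0.770 for Ppbp, -0.17 to 0.14 for Itga2b, -0.19 to 0.36 for Gp9, -0.083 to 0.255 for Gp6, -0.077 to 0.512 for Treml1 and -0.019 to 0.588 for Tubb1. The median HFD minus WT difference of the 10 genes ran from 0.828 to 1.988 (1.286 without WT replicate 1), and that of the high-fat groups from 0.78 to 1.39.

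Genes called over the whole table in HAPN minus HFD were 3, against 5 with no filter, 0 with the stricter filter, 5 with median-ratio scaling, 0 with the replicate block, 10 with identical files counted separately, 0 with the groups fitted alone, 0 with limma-voom and 0 to 5 with 1 library left out, where 1 HFD library alone is assumed to vary like the other groups. In HSAPN minus HFD they were 0, against 2 with no filter, 2 with identical files counted separately and 0 to 3 with 1 library left out. In HSAPN minus HAPN they were 2, against 1 with no filter, 0 with the groups fitted alone, 1 with limma-voom and 0 to 3 with 1 library left out. Over the 15 pairs of same-numbered libraries the r of deviations ran from -0.59 to 0.50, and from -0.54 to 0.02 between HSAPN and HAPN, so the numbers were not taken to pair the samples, and the replicate block changed no call of the 10 genes.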
